A study of Mus musculus with 18 samples.

Results

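Tumors of mice given HER2 DC1 cells alone were set against tumors of untreated control mice, over both kinds of tumor that the study collected. The comparison used 8 of the 18 samples of the series, chosen by their titles, with 4 samples in each arm, and it was fitted over all 768 genes of a NanoString nCounter metabolic pathways panel. The 8 samples were 2 treated tumors of DC1 mice, 2 treated tumors of control mice, 2 untreated tumors of DC1 mice and 2 untreated tumors of control mice. All came from female BALB/c mice bearing TUBO tumors, a cloned mouse mammary carcinoma line driven by the rat HER2/neu oncogene. Dendritic cell therapy was given into the tumor over 3 weeks, the other agent of the series being an antibody that blocks semaphorin 4D, and all tumors were taken at the same time. The ages of the mice, the treatment of control mice, and which tumor of a control mouse counts as treated are not stated in the sources used here. The labels also do not say that samples came from separate mice, or whether the treated and the untreated tumor with the same number came from 1 mouse. The p-values below therefore measure the spread between these samples.

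DC1 is the usual name for type 1 polarized dendritic cells, antigen-presenting cells matured so that they produce interleukin-12 and prime T helper 1 responses. Interferon gamma from T helper 1 and natural killer cells induces antigen-presentation genes in tumor cells and myeloid cells, along with the chemokines that draw in T cells and the inhibitory ligand PD-L1. Activated immune cells and growing tumor cells also take up more glucose and export lactate, so that these genes share a panel made for metabolism.

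Panel counts per sample were between 238089 and 861532 in DC1 tumors and between 203513 and 738200 in control tumors. The shallowest samples were replicate 1 of the untreated DC1 tumors, with 238089 counts, and replicate 2 of the untreated control tumors, with 203513. A detection limit, the mean plus 2 SD of the 8 negative control probes of a sample, lay between 5.29 and 5.75 on the log2 scale in DC1 tumors and between 4.95 and 5.71 in control tumors. Of the 768 genes, 471 lay above it in all 8 samples and 151 in none. Replicates of a group correlated at 0.958 to 0.990. All levels below are the deposited log2 values, which hold log2(count + 1), with counts scaled by 1 factor per sample in some columns. Control replicate 1 and DC1 replicate 2 of both kinds of tumor held whole numbers instead. Whether these were scaled is not settled, and a factor of 1 was assumed for their panel counts and limits. Sums on the deposited scale are called scaled counts. Folds on this scale come out too small for genes near a few counts. The 3 markers of mammary epithelial and tumor cells on the panel, Trf, Car12 and Folr1, were above the limit in all 8 samples, with a summed level of 97563 to 128440 scaled counts in DC1 tumors and 90504 to 131990 in control tumors. Most of that sum was Trf, with a change of 0.09 ± 0.18, while Car12 and Folr1 had changes of -0.37 ± 0.18 and -0.50 ± 0.19 and none of the 3 passed (limma, adjusted p = 0.795, 0.236 and 0.171).

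In DC1 tumors 10 of 768 genes (1.3%) rose and 0 (0%) fell by limma's moderated test with the kind of tumor as a block and a Benjamini-Hochberg adjusted p under 0.05. The genes that rose were Cd274, H2-M3, H2-T23, Ccl5, Tnf, Slc16a3, Hk3, Slc2a6, Haao and Aoc2. At an unadjusted p under 0.05, 184 genes (24%) were higher and 9 (1.17%) were lower in DC1 tumors. All 4 DC1 samples lay above all 4 control samples for 114 genes (14.8%) and below them for 9 (1.17%). The panel as a whole was shifted in the same direction, with a median log2 change of 0.28 and a positive change for 611 of 768 genes. With every sample centred on its own panel median, this shift was -0.045, and the split at an unadjusted p under 0.05 was 47 genes higher and 67 lower. With every sample centred on 20 housekeeping genes, the shift was 0.087 and the split was 98 higher and 30 lower. The changes of the 10 genes were all above this shift, at 0.97 to 2.18 as deposited, 0.78 to 1.99 after housekeeping centring and 0.65 to 1.86 after median centring. None passed with median centring (limma, adjusted p between 0.0534 and 0.177), while Cd274, H2-M3, Slc16a3 and Aoc2 passed with housekeeping centring (adjusted p = 0.0343 for each). Without any 1 of the 4 treated-tumor samples the count was 0, and it was 3 and 1 without replicates 1 and 2 of the untreated control tumors and 5 and 14 without replicates 1 and 2 of the untreated DC1 tumors. Without both shallow samples it was 25, of which 8 were among the 10. When the 2 tumors of the same arm and number were averaged into 1 value, no gene passed (limma, smallest adjusted p = 0.310, 91 genes higher and 2 lower at an unadjusted p under 0.05).

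**Figure D1:**
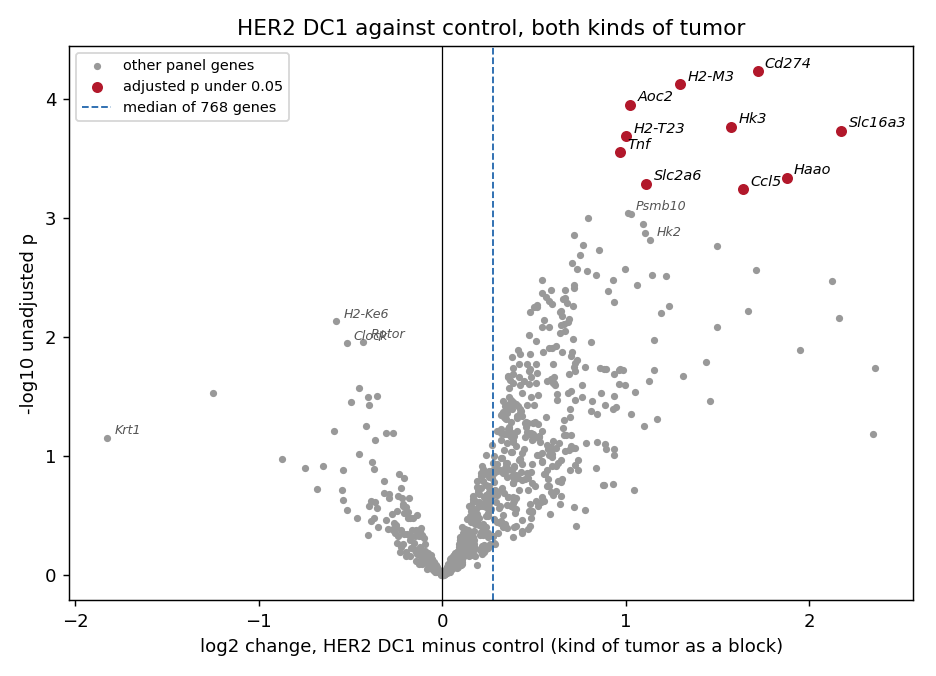
Log2 change in HER2 DC1 tumors minus control tumors (horizontal axis) against -log10 of the unadjusted limma p (vertical axis) for 768 panel genes, with the 10 genes past an adjusted p of 0.05 in red. Most points lie right of 0, and the dashed line marks the panel median of 0.28.

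Of the 10 genes, Cd274 and H2-M3 had the smallest p-values. Cd274, the gene of PD-L1, the ligand of the inhibitory T cell receptor PD-1, stood at 8.13 and 8.15 in treated DC1 tumors, against 6.04 and 6.10 in treated control tumors. In untreated tumors it stood at 7.51 and 6.97 in DC1 mice, against 6.09 and 5.65 in control mice. Every DC1 sample was above every control sample, and the treated DC1 tumors were the highest. Over both kinds of tumor Cd274 averaged 7.69 ± 0.57 in DC1 tumors and 5.97 ± 0.22 in control tumors (SD, n = 4 each), a log2 change of 1.72 ± 0.22 (SE) or 3.29-fold (limma, adjusted p = 0.0264). Pdcd1lg2, the other PD-1 ligand, was above the limit in 1 DC1 sample and no control sample, and its fitted change of 1.71 ± 0.39 did not pass (adjusted p = 0.0808), and Pdcd1, the receptor, one of 0.35 ± 0.20 (adjusted p = 0.303).

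H2-M3 and H2-T23 encode nonclassical MHC class I proteins. H2-M3 presents N-formylated peptides of bacteria and mitochondria to T cells, and H2-T23 (Qa-1) is the ligand of the inhibitory receptor CD94/NKG2A on natural killer and T cells. H2-M3 stood at 7.64 and 7.45 in treated DC1 tumors, against 6.32 and 5.88 in treated control tumors, and at 6.83 and 7.17 in untreated DC1 tumors, against 5.91 and 5.79 in untreated control tumors. The groups did not overlap, and the change was 1.30 ± 0.17 or 2.46-fold (limma, adjusted p = 0.0264). H2-T23 had the highest counts of the 10 genes, at 11.17 and 11.20 in treated DC1 tumors, against 10.16 and 9.84 in treated control tumors. Its untreated tumors had 10.89 and 11.04 in DC1 mice, against 10.20 and 10.08 in control mice. Again no DC1 sample reached down to a control sample, and the change was 1.00 ± 0.15 or 2.00-fold (limma, adjusted p = 0.0264).

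The rest of the MHC class I list had smaller changes or wider spread. Of its 7 measured genes, 2 rose (H2-M3 and H2-T23), 5 had an unadjusted p under 0.05 and a positive change, none had one with a negative change, and 4 had groups that did not overlap. Over the panel 24% of genes were higher at that threshold, and 14.8% had all DC1 samples above all control samples. The list's median was 0.69, against 0.28 for the panel. Psmb10, a catalytic subunit of the immunoproteasome, had 10.07 and 9.62 in treated DC1 tumors, against 8.95 and 8.62 in treated control tumors, and 10.22 and 9.63 in untreated DC1 tumors, against 8.85 and 9.06 in untreated control tumors. Its groups did not overlap either, but its change of 1.01 ± 0.19 did not pass (limma, adjusted p = 0.0592). The classical class I gene H2-D1 had a change of 0.62 ± 0.19 (adjusted p = 0.118) and Psme2, a proteasome activator subunit, one of 0.69 ± 0.19 (adjusted p = 0.0919). The H2-K1 and H2-Q10 probes were at or below the limit in all 8 samples. The summed level of the list was 17465 to 23668 scaled counts in DC1 tumors and 10129 to 14611 in control tumors.

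Upstream sequence is shown for H2-M3, H2-T23, Cd274 and the lactate exporter Slc16a3, whose values follow. These passed and were above the limit in at least 7 of 8 samples, as was Ccl5, which had no RefSeq window. Each line gives the 250 bases before 1 RefSeq start of the gene in the GRCm38.p6 build, 5′ to 3′ on the strand of the gene. The windows are chr17:37269984-37270233 (plus strand) for H2-M3, chr17:36032702-36032951 (minus strand) for H2-T23, chr19:29367188-29367437 (plus strand) for Cd274 and chr11:120948817-120949066 (plus strand) for Slc16a3. Capitals mark a match to a GAS motif (TTCNNNGAA, which reads the same on both strands) or to an interferon-stimulated response element core (TTTCNNTTTC on either strand), and each printed window held at most 1 match.
H2-M3: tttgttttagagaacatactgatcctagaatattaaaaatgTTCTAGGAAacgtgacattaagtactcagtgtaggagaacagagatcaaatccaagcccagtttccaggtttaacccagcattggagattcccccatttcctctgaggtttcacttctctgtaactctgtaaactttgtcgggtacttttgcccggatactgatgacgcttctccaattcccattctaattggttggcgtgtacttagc
H2-T23: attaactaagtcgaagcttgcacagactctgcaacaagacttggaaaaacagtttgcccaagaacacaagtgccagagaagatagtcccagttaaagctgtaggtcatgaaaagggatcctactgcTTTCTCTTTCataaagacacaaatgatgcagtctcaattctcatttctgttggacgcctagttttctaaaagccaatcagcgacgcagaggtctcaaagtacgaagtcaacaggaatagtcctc
Cd274: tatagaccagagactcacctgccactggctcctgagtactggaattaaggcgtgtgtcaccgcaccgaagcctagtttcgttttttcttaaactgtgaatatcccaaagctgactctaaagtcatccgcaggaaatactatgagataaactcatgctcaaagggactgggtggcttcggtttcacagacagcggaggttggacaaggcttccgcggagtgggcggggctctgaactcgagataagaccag
Slc16a3: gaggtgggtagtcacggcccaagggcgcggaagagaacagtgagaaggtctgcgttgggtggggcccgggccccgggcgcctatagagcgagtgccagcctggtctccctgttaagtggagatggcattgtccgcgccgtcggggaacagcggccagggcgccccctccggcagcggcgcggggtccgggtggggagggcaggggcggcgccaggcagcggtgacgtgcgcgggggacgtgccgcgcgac
H2-M3 held a GAS match starting 209 bases before the start, and H2-T23 held a response element core starting 124 bases before it. The windows of Cd274 and Slc16a3 held no match. Both lie inside the annotated spans of their genes, which begin at chr19:29362107 and chr11:120948484. Only 1 window was searched for each of these genes. RefSeq windows were found for 9 of the 10 genes, and 1 of 9 held each of these 2 motifs, against 7.02% and 2.98% of 32851 promoter windows of the same length. Of 604 panel genes with a window, 6.29% and 3.15% held them. A kB motif (GGGNNTTTCC, either strand) was in 0 of 9, in 1.41% of all windows and in 2.65% of these panel genes.

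**Figure D2:**
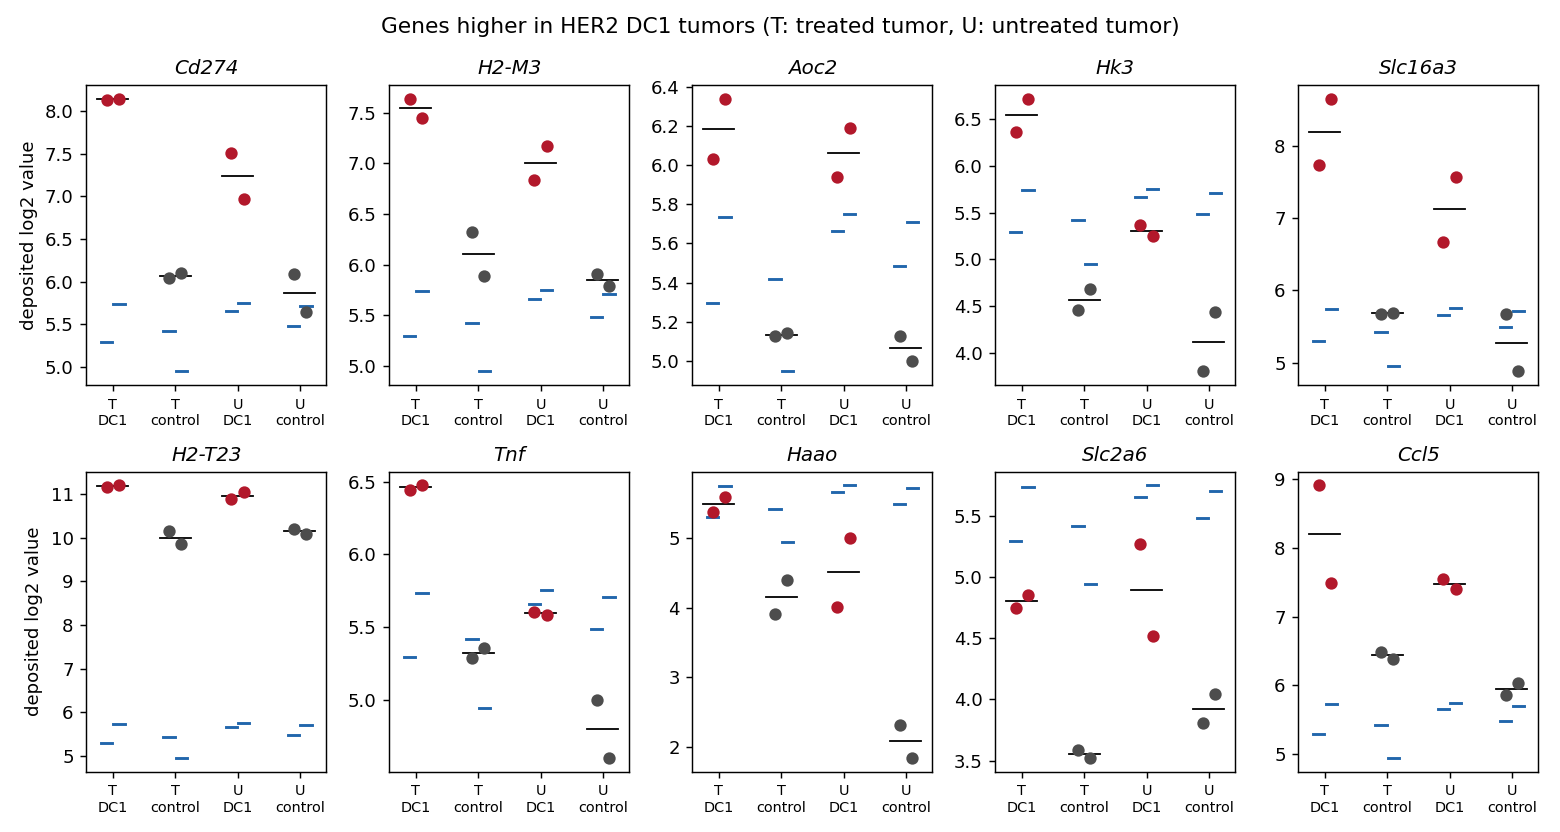
Deposited log2 value of each sample for the 10 genes that rose, in treated (T) and untreated (U) tumors, DC1 in red beside control in grey, with a black line at the mean of 2 samples and a blue tick at each sample's detection limit. The DC1 samples lie above the control samples of their own kind of tumor in every panel, while Slc2a6 lies below the limit throughout and Haao exceeds it in 1 sample.

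The inflammatory mediators Ccl5 and Tnf rose as well. Ccl5, a chemokine that attracts T cells and monocytes, stood at 8.90 and 7.48 in treated DC1 tumors, against 6.49 and 6.39 in treated control tumors, and at 7.55 and 7.40 in untreated DC1 tumors, against 5.86 and 6.03 in untreated control tumors. All DC1 samples exceeded all control samples, and 1 treated DC1 tumor was well above the rest. The change was 1.64 ± 0.29 or 3.12-fold (limma, adjusted p = 0.0441). Tnf, the gene of tumor necrosis factor, had 6.45 and 6.48 in treated DC1 tumors, against 5.29 and 5.36 in treated control tumors, and 5.61 and 5.58 in untreated DC1 tumors, against 5.0 and 4.60 in untreated control tumors. These groups did not overlap, although Tnf exceeded the limit in only 2 DC1 samples, both treated tumors, and in 1 control sample. Its change was 0.97 ± 0.15 or 1.96-fold (limma, adjusted p = 0.0308).

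Of 14 cytokines, chemokines and their receptors, 2 rose (Ccl5 and Tnf), 6 were higher and none lower at an unadjusted p under 0.05, and the median change was 0.66. Over the panel 24% of genes were higher at that threshold, and the median was 0.28. Cxcl9, the interferon-induced ligand of CXCR3, had 10.14 and 7.52 in treated DC1 tumors, against 6.52 and 6.34 in treated control tumors. In untreated tumors Cxcl9 had 9.0 and 7.27 in DC1 mice, against 6.13 and 6.29 in control mice. The groups were apart, but the DC1 samples differed widely among themselves, replicate 1 of each kind of tumor being the higher, and the change of 2.16 ± 0.59 did not pass (limma, adjusted p = 0.0919). Irf1, a transcription factor induced by interferon, had a change of 0.84 ± 0.20 (limma, adjusted p = 0.0808). None of the 4 measured interferon-response genes passed, 3 were higher at an unadjusted p under 0.05, and the 3 had groups that did not overlap. For 14.8% of the panel all DC1 samples lay above all control samples. The summed level of the 4 interferon-response genes was 2172 to 4809 scaled counts in DC1 tumors and 1421 to 1640 in control tumors. Ifng itself lay at or below the limit in all 8 samples.

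In the toll-like receptor and NF-kB list, 1 of 12 genes rose (Tnf), and 4 were higher and 1 lower at an unadjusted p under 0.05. The shares over the panel were 24% higher and 1.17% lower. The NF-kB subunits Nfkb2 and Rela had changes of 0.86 ± 0.18 and 0.90 ± 0.22 with groups that did not overlap (limma, adjusted p = 0.0718 and 0.0834). Cd14, the lipopolysaccharide coreceptor of monocytes and macrophages, was the member that was lower at an unadjusted p under 0.05. It stood at 12.02, 12.17, 12.16 and 11.79 in DC1 tumors, against 12.26, 12.63, 12.43 and 12.45 in control tumors. The groups were apart by a small margin, and the change of -0.41 ± 0.15 did not pass (limma, adjusted p = 0.164).

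Slc16a3, Hk3 and Slc2a6 take part in glucose and lactate handling. Slc16a3, the monocarboxylate transporter MCT4, which exports lactate from glycolytic cells, had the largest change of them. It stood at 7.73 and 8.65 in treated DC1 tumors, against 5.67 and 5.68 in treated control tumors, and at 6.67 and 7.57 in untreated DC1 tumors, against 5.67 and 4.88 in untreated control tumors. The arms did not overlap, and in both kinds of tumor replicate 2 was the higher DC1 sample. Slc16a3 averaged 7.65 ± 0.81 in DC1 tumors and 5.48 ± 0.40 in control tumors (SD, n = 4 each), a change of 2.18 ± 0.32 or 4.52-fold (limma, adjusted p = 0.0264). Hk3, a hexokinase found mainly in myeloid cells, had 6.36 and 6.71 in treated DC1 tumors, against 4.46 and 4.69 in treated control tumors, and 5.36 and 5.25 in untreated DC1 tumors, against 3.81 and 4.44 in untreated control tumors. Hk3 was at or below the limit in every control sample and exceeded it in 2 DC1 samples, both treated tumors. In untreated tumors it was thus below the limit in both arms. Its increase is given as at least 1.44-fold, from the mean of all DC1 tumors, including the untreated ones, against the limits of control tumors (limma on the deposited values, change 1.57 ± 0.23, adjusted p = 0.0264). Slc2a6, the glucose transporter GLUT6, was at or below the limit in all 8 samples, at 4.52 to 5.27 in DC1 tumors and 3.52 to 4.04 in control tumors, so that no fold is given (limma, adjusted p = 0.0441).

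Of 23 genes of glycolysis and glucose uptake, 2 rose (Hk3 and Slc16a3), 8 were higher and none lower at an unadjusted p under 0.05, where 24% of the panel was higher. The list's median was 0.50, against 0.28 for the panel, and 0.18 after median centring. Hk2, the inducible hexokinase of tumors, had 9.03 and 9.36 in treated DC1 tumors, against 8.05 and 8.09 in treated control tumors, and 8.70 and 9.18 in untreated DC1 tumors, against 8.28 and 7.33 in untreated control tumors. No DC1 sample fell among the controls, yet the change of 1.13 ± 0.23 did not pass (limma, adjusted p = 0.0692). Pgk1, phosphoglycerate kinase, had a change of 1.15 ± 0.34 with overlapping groups (adjusted p = 0.112). Ldha, lactate dehydrogenase A, and Slc2a1, the glucose transporter GLUT1, had changes of 0.64 ± 0.51 and 0.25 ± 0.31 with overlapping groups (adjusted p = 0.455 and 0.641). Vhl, which targets hypoxia-inducible factors for degradation, had one of 1.10 ± 0.22 (adjusted p = 0.0666), and none of the 7 hypoxia-response genes passed.

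The remaining 2 genes act in amino acid and amine metabolism. Aoc2, a copper-containing amine oxidase, stood at 6.03 and 6.34 in treated DC1 tumors, against 5.13 and 5.14 in treated control tumors, and at 5.94 and 6.19 in untreated DC1 tumors, against 5.13 and 5.0 in untreated control tumors. The arms did not overlap and the samples of each arm lay close together, but only 1 control sample exceeded the limit (change 1.03 ± 0.14 or 2.04-fold, limma, adjusted p = 0.0264). Haao, the dioxygenase that turns 3-hydroxyanthranilate of the kynurenine pathway toward quinolinate and NAD, had 5.38 and 5.58 in treated DC1 tumors, against 3.91 and 4.39 in treated control tumors, and 4.01 and 5.0 in untreated DC1 tumors, against 2.32 and 1.84 in untreated control tumors. The arms overlapped across the kinds of tumor, since 1 untreated DC1 tumor lay between the treated control tumors. Only 1 of the 8 Haao values was above the limit, so no fold is given (limma, change 1.88 ± 0.32, adjusted p = 0.0440). Haao and Slc2a6 were too dim for the rule by which genes were named and are described because they passed. Of 21 genes that handle arginine, tryptophan or kynurenine, 1 rose (Haao), and 3 were higher and none lower at an unadjusted p under 0.05. Over the panel 24% of genes were higher at that threshold. Of the 21 genes, 10 were at or below the limit in all 8 samples. Arg1, arginase 1, was abundant in both arms, at 12.21 ± 0.43 in DC1 tumors and 12.07 ± 0.36 in control tumors (SD, n = 4 each). Ido1, which starts the kynurenine pathway, was at or below the limit in all 8 samples.

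Among genes just short of the threshold were some outside these groups. Tyms, thymidylate synthase, had 7.55, 7.80, 7.80 and 7.75 in DC1 tumors, against 6.97, 6.77, 7.21 and 6.77 in control tumors, with no overlap and a change of 0.79 ± 0.15 (limma, adjusted p = 0.0595). Csf3r, the receptor of granulocyte colony-stimulating factor on neutrophils, had a change of 1.09 ± 0.22 (adjusted p = 0.0612), and Runx2, a transcription factor of osteoblasts that tumors can express, was below the limit in all control tumors and 1.03 ± 0.20 higher as fitted (adjusted p = 0.0592). Mtor, the kinase of the mTOR complexes, and Akt1, a kinase upstream of it, had changes of 0.67 ± 0.16 and 0.59 ± 0.15 with groups that did not overlap (adjusted p = 0.0834 for both).

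No gene fell. The negative change with the smallest p was that of H2-Ke6, a hydroxysteroid dehydrogenase encoded in the MHC region, with 7.38, 7.26, 7.62 and 7.29 in DC1 tumors, against 7.75, 8.18, 7.91 and 8.02 in control tumors. Its groups did not overlap, and the change was -0.58 ± 0.16 (limma, adjusted p = 0.0919). Rptor, the scaffold subunit of mTOR complex 1, and Clock, a core transcription factor of the circadian clock, followed with -0.43 ± 0.13 and -0.52 ± 0.16 (adjusted p = 0.113 and 0.114), both with groups apart. Folr1, a folate receptor of epithelial cells, had a change of -0.50 ± 0.19 and Srebf2, the regulator of cholesterol synthesis, one of -0.40 ± 0.16 (adjusted p = 0.171 and 0.176). Krt1, a keratin of differentiated skin, had the most negative change at -1.82 ± 0.87, but its DC1 samples were spread between 7.25 and 11.67 and overlapped with control samples at 9.58 to 11.63 (adjusted p = 0.230).

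Gene lists were described by counts and medians over their measured members, and none of the following had a member that passed. Among 25 genes of the mTOR complexes and upstream kinases, 10 were higher and 1 (Rptor) lower at an unadjusted p under 0.05, with a median of 0.32 as deposited that was 0.13 after housekeeping centring and -0.002 after median centring. For 31 genes of mitochondrial respiration the counts were 8 and 0, and the median was 0.36, or 0.17 after housekeeping centring and 0.04 after median centring. In 27 genes of nucleotide synthesis and salvage they were 7 and 0, with a median of 0.17 that turned to -0.02 after housekeeping centring and to -0.15 after median centring. The 20 genes of the TCA cycle and pyruvate entry gave 3 and 0 and a median of 0.17, which likewise turned negative, at -0.02 and -0.15. Cell cycle and mitosis (17 genes) gave 2 and 0, with a median of 0.11 that turned to -0.08 and -0.21 under the same scalings, and Mki67, a marker of dividing cells, had a change of 0.35 ± 0.40 (limma, adjusted p = 0.602). The 9 genes of fatty acid oxidation gave 1 and 0, with a median of 0.22 that was 0.03 after housekeeping centring and -0.10 after median centring. These medians are read against the panel median of 0.28 and the background of 24% higher and 1.17% lower genes at the same threshold.

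**Figure D3:**
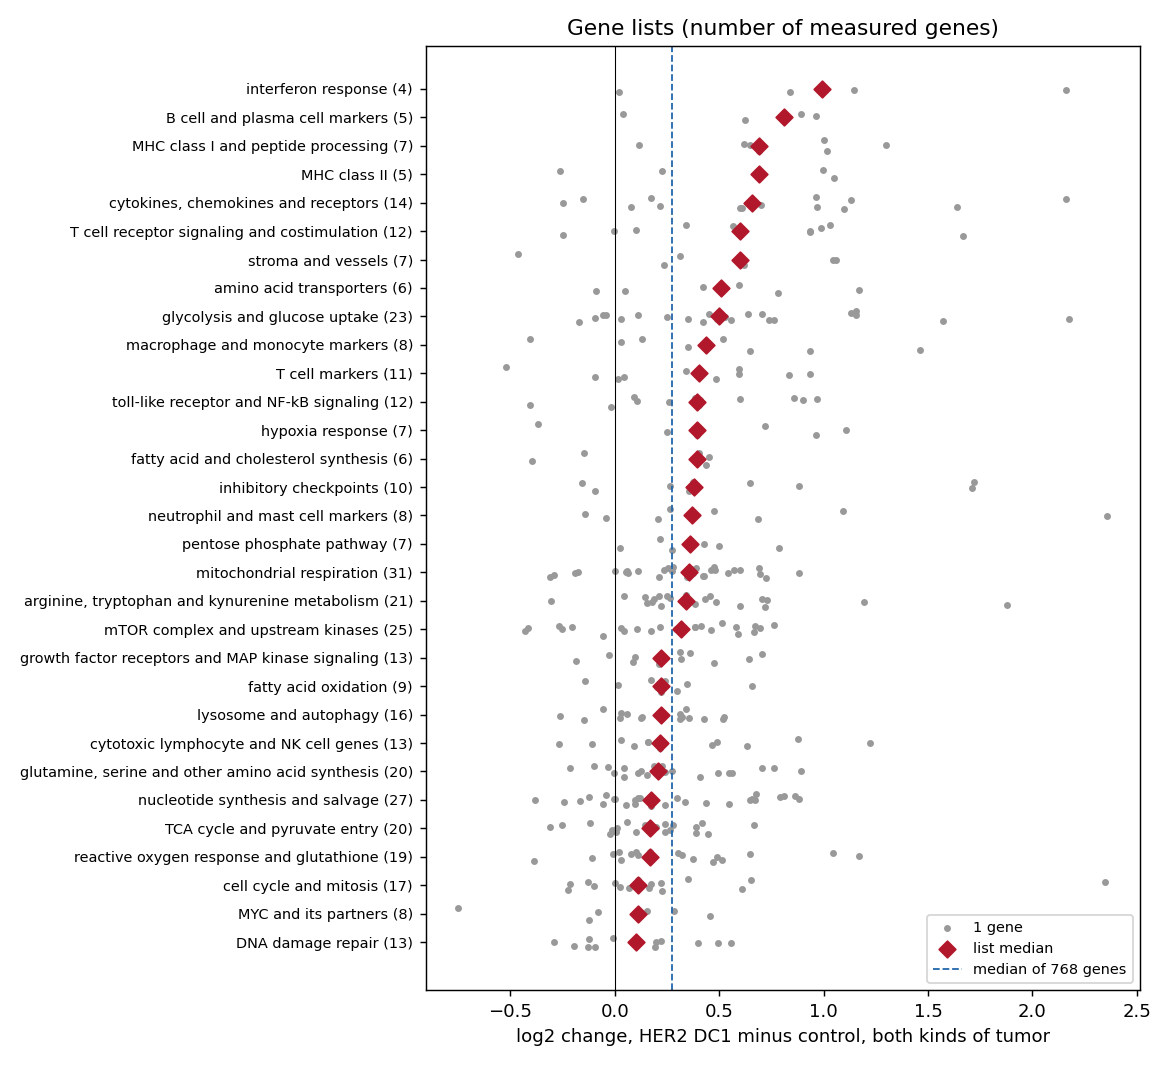
Log2 change in HER2 DC1 tumors minus control tumors for every measured member (grey) and the median (red) of each list with at least 4 measured genes. The interferon-response list has the highest median, 0.99 over 4 genes, and the dashed line marks the panel median of 0.28.

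Markers of other cell types were summed in each sample, and in such bulk tissue more cells of a type and more RNA per cell cannot be told apart. The 11 T cell markers summed to 364 to 644 scaled counts in DC1 tumors and 350 to 444 in control tumors. None passed. Only Cd28, at or below the limit in all 8 samples, was higher at an unadjusted p under 0.05, against 24% of the panel. Cd3d, above the limit in all 8 samples, averaged 7.285 in DC1 tumors and 7.38 in control tumors. Cd3e averaged 3.99 in DC1 tumors and 4.51 in control tumors. It was above the limit in 1 DC1 sample and no control sample, and Cd8a was below it in all 8. Of the 11 markers, 9 had a positive change, as did 611 of 768 genes over the panel. Cytotoxic and natural killer cell genes (13) summed to 480 to 1695 in DC1 tumors and 526 to 862 in control tumors. Their median change was 0.22, below the panel median of 0.28, and it was -0.10 after median centring. Only Prf1, perforin, was higher at an unadjusted p under 0.05, with a fitted change of 1.22 ± 0.29 (limma, adjusted p = 0.0808). Prf1 exceeded the limit in 2 DC1 samples and no control sample. Gzmb, granzyme B, had a change of 0.63 ± 0.41 and exceeded the limit in 1 DC1 sample. The 8 macrophage and monocyte markers summed to 4941 to 6765 in DC1 tumors and 6154 to 7780 in control tumors, with 3 higher (Cd68, Cd84 and Cd163) and 1 lower (Cd14) at that threshold. Cd14 made up most of that sum, while 7 of the 8 had a positive change, near the share of 611 of 768 over the panel. The median change of these 8 was 0.44, against 0.28 for the panel, and 0.12 after median centring. Cd163 was at or below the limit in all control samples. Neutrophil and mast cell markers (8) summed to 322 to 831 in DC1 tumors and 256 to 391 in control tumors. Of these 8 genes, 5 were at or below the limit in all 8 samples. Hdc exceeded the limit only in 1 DC1 sample, at 8.18. In this list 3 genes were higher and none lower at an unadjusted p under 0.05, with a median change of 0.37, or 0.05 after median centring. Ptprc, the pan-leukocyte gene of CD45, had 10.16, 9.46, 9.63 and 9.26 in DC1 tumors, against 8.68, 8.68, 8.45 and 8.98 in control tumors, with no overlap and a change of 0.93 ± 0.22 (limma, adjusted p = 0.0818). Dendritic cell genes were represented by Flt3, at or below the limit in all 8 samples, and Irf4 (change 0.72 ± 0.37, adjusted p = 0.258). Class II genes summed to 10916 to 35077 in DC1 tumors and 11455 to 18128 in control tumors, where H2-Aa had a change of 0.23 ± 0.46 and 1 treated DC1 tumor at 14.29 against 12.25 to 13.36 for the rest of that arm. The part of these markers in the 10 genes was not tested.

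Changes were then taken within each kind of tumor, from 2 against 2 samples in a fit with 1 mean per group. In treated tumors limma called 0 of 768 genes in either direction, with 105 genes (13.7%) higher and 2 (0.26%) lower at an unadjusted p under 0.05. In untreated tumors it also called 0, with 55 (7.16%) higher and 8 (1.04%) lower. The smallest adjusted p-values in treated tumors were those of Cd274, with a change of 2.07, and Hk3, with 1.96 (adjusted p = 0.0554 for both). H2-M3 and H2-T23 followed with 1.44 and 1.18, and so did Flt1, a receptor of vascular endothelial growth factor, with 1.57 and Alox15, a lipoxygenase of eosinophils and macrophages, with 3.13 (adjusted p = 0.0888 for each). Hk3, Flt1 and Alox15 were at or below the limit in all control samples, so their changes are as fitted. In untreated tumors Cd274 and H2-M3 had changes of 1.37 and 1.16 (adjusted p = 0.401), and Slc16a3 had one of 1.84 (adjusted p = 0.483). Both DC1 samples lay above both control samples for 408 genes (53.1%) in treated tumors and 210 (27.3%) in untreated tumors. Both lay below both control samples for 37 genes (4.82%) in treated tumors and 52 (6.77%) in untreated tumors.

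Of the 10 genes, 9 had the larger change in the treated tumor, Haao being the exception with 1.33 in treated and 2.42 in untreated tumors. The same held for 482 of 768 panel genes (62.8%), and the panel median was 0.35 in treated and 0.23 in untreated tumors. A test of this difference for each gene called 0 of 768 (limma, smallest adjusted p = 0.301), with 20 genes (2.6%) higher and 7 (0.911%) lower at an unadjusted p under 0.05. For Cd274 the difference between the changes was 0.70 ± 0.38 (SE), for Slc16a3 0.67 ± 0.65 and for H2-M3 0.29 ± 0.35 (limma, adjusted p = 0.9998 for each). Among the bright genes with the smallest p for this difference were the macrophage genes Ms4a4a, at 8.67 and 8.26 in treated DC1 tumors, against 7.45 and 7.48 in treated control tumors, and Cd84, at 8.61 and 8.23 in treated DC1 tumors, against 6.58 and 7.06 in treated control tumors. In untreated tumors Ms4a4a had 7.40 and 6.92 in DC1 mice, against 7.40 and 7.51 in control mice, and Cd84 had 6.21 and 6.97 in DC1 mice, against 6.23 and 6.39 in control mice. The differences were 1.29 and 1.32 and did not pass. Across all 768 genes the changes in treated and untreated tumors correlated at r = 0.499, a description over genes that share the scaling of each sample. Of these genes, 494 were higher in both kinds of tumor, 85 lower in both and 189 of opposite sign.

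**Figure D4:**
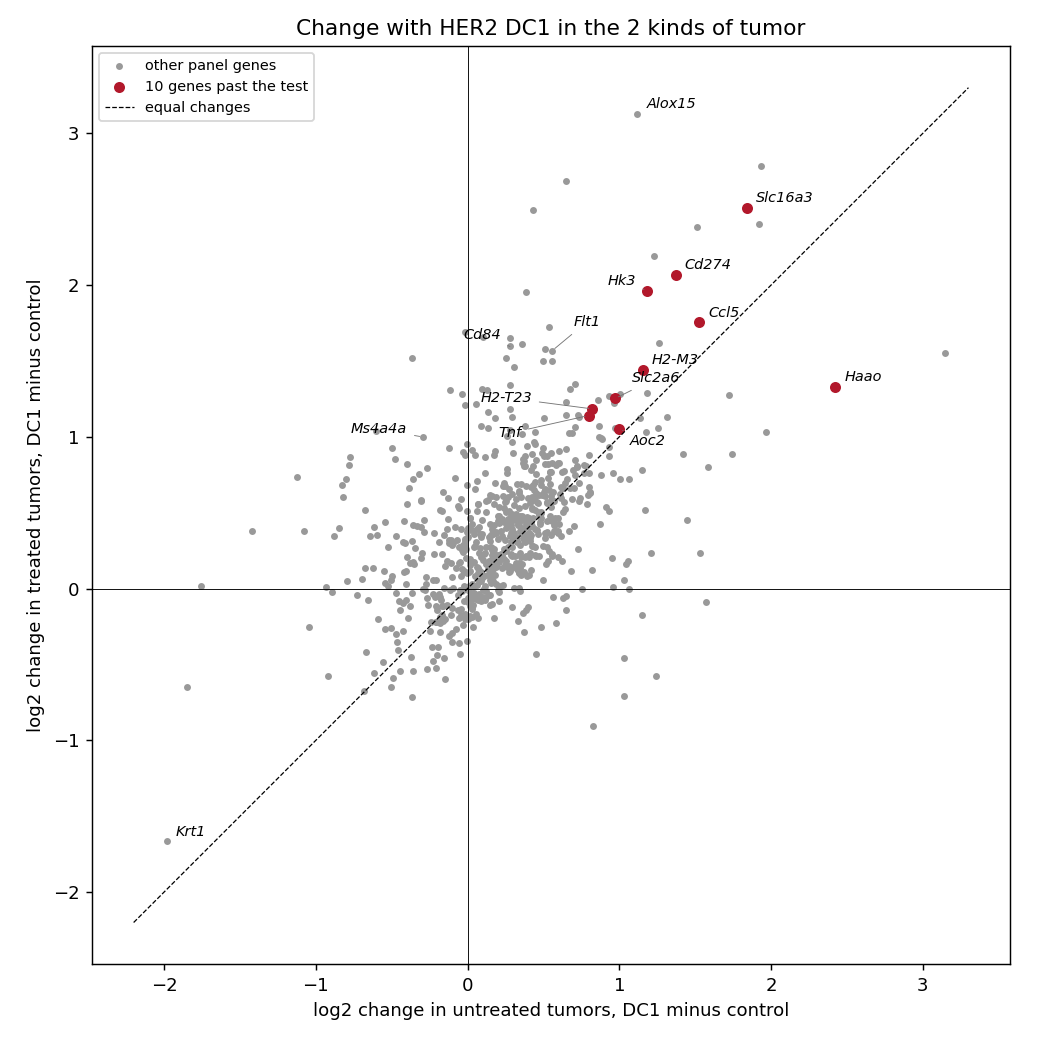
Log2 change with HER2 DC1 in untreated tumors (horizontal axis) and in treated tumors (vertical axis) for 768 genes, each DC1 minus control, with the 10 genes that rose over both in red. All 10 lie at the upper right, and Haao alone among them lies below the dashed line of equal changes.

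The 4 DC1 samples were also set directly against the 4 tumors of mice given the semaphorin 4D antibody alone, with the kind of tumor as a block. There 66 genes (8.59%) rose and 3 (0.391%) fell by limma. At an unadjusted p under 0.05, 199 genes (25.9%) were higher and 17 (2.21%) lower, and all 4 DC1 samples lay above all 4 antibody samples for 147 genes (19.1%) and below them for 10 (1.3%). Alox15 averaged 6.01 ± 1.10 in DC1 tumors and 3.66 ± 0.62 in antibody tumors (SD, n = 4 each). It was below the limit in every antibody sample and above it in 3 of 4 DC1 samples. Its increase is given as at least 1.47-fold (limma on the deposited values, adjusted p = 0.0303). That bound sets the mean of all DC1 tumors, including a value below the limit, against the limits of antibody tumors. Among genes that passed and were above the limit in all 8 samples, Hk2 had the largest change, at 9.07 ± 0.28 in DC1 tumors and 7.39 ± 0.79 in antibody tumors (SD, n = 4 each), a change of 1.68 ± 0.38 or 3.20-fold (limma, adjusted p = 0.0384). Slc16a3 was 3.11-fold and Cd274 2.99-fold higher in DC1 tumors (adjusted p = 0.0311 and 0.0260). Tfrc, the transferrin receptor, and Arpc4, an actin-nucleating subunit, were 2.72-fold and 2.43-fold higher (adjusted p = 0.0282 and 0.0254). H2-M3, H2-T23, Hk3, Slc2a6, Haao and Aoc2 also passed against the antibody (adjusted p between 0.0254 and 0.0353), while Ccl5 and Tnf did not, with changes of 0.98 ± 0.29 and 0.62 ± 0.22 (adjusted p = 0.0826 and 0.137). The genes that fell were H2-Ke6 with -0.83 ± 0.16, Cd14 with -0.58 ± 0.14 and, named after its value was seen, the housekeeping gene Mrps5 with -0.70 ± 0.15 (adjusted p = 0.0311, 0.0446 and 0.0353). With every sample centred on its panel median, 9 genes rose and 7 fell. Without any 1 sample the counts were between 0 and 139 for genes that rose and 0 and 4 for genes that fell, and the count of both was 0 without either treated DC1 tumor, either treated antibody tumor or replicate 1 of the untreated antibody tumors.

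Levels in the other arms are given beside these for the leading genes. They come from the same control samples, so the arms are not independent of each other. Cd274 averaged 7.69 in DC1 tumors, 6.11 in antibody tumors and 9.13 in tumors given both (n = 6), against 5.97 in control tumors. H2-T23 averaged 11.07 in DC1 tumors, 10.09 with the antibody and 12.40 with both, against 10.07 in control tumors. Slc16a3 averaged 7.65 in DC1 tumors, 6.02 with the antibody and 8.01 with both, against 5.48 in control tumors, and its combination samples were spread from 6.71 to 10.82. In a fit of all 18 samples with 1 mean per group, whose error includes the spread of the combination samples, the DC1 changes of Cd274, H2-T23 and Slc16a3 had an adjusted p of 0.0964 by limma, and Haao was the only gene that passed (adjusted p = 0.0411).

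**Figure D5:**
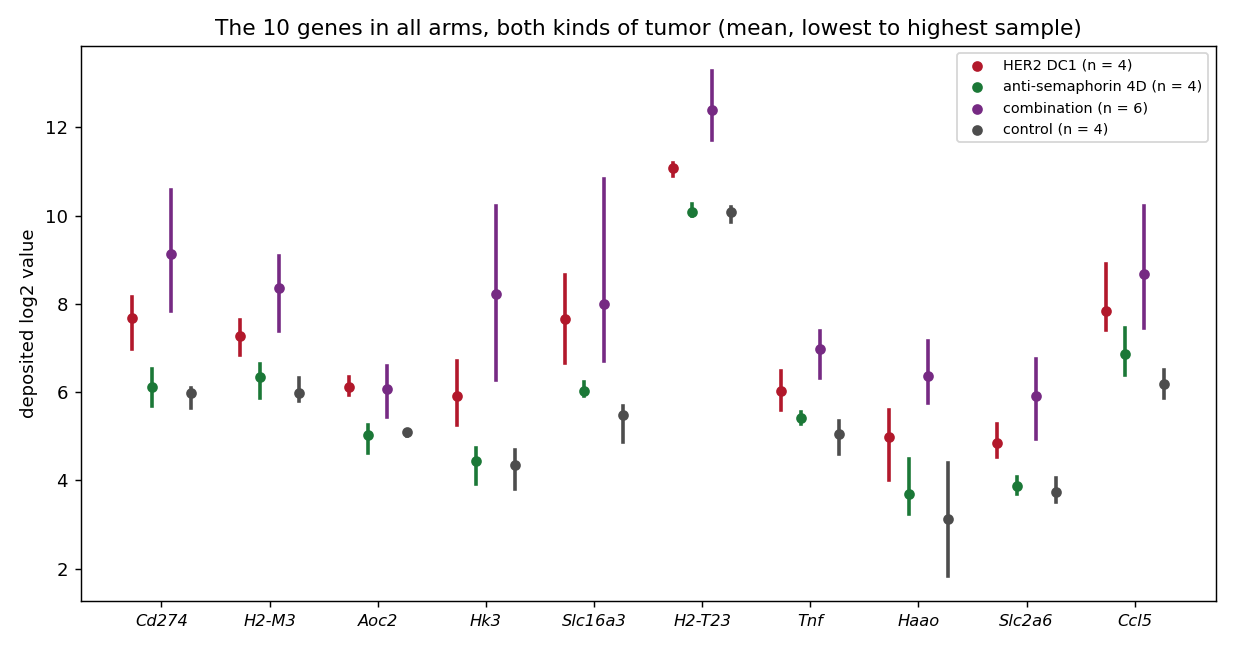
Deposited log2 values of the 10 genes in HER2 DC1, anti-semaphorin 4D, combination and control tumors, with both kinds of tumor pooled, points at the mean and lines from the lowest to the highest sample. For Cd274 the means are 7.69, 6.11, 9.13 and 5.97.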

How the data were processed

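RNA from the tumors was measured with a NanoString nCounter metabolic pathways panel, which counts barcoded probes bound to RNA without amplification. The authors deposited log2 values, which were used as they are. The submitters' processing notes name limma, without its version or role, and the sources used here do not say whether background was subtracted or probes filtered. Of 782 probes, 768 were genes, 6 were positive and 8 negative controls, and 767 gene symbols matched RefSeq (GRCm38.p6). In 12 of 18 columns the values stepped by 1 factor per sample over log2(count + 1), which gave the panel counts and put the negative controls on the scale of the genes. The other 6 columns (control replicate 1, DC1 replicate 2 and antibody replicate 2, each from both kinds of tumor) held whole numbers, and whether these are counts or rounded scaled counts is not settled, so a factor of 1 was assumed there for depths and limits. The 2 kinds of column are balanced between DC1 and control.

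The 4 DC1 and 4 control samples were grouped by title and fitted in limma 3.58.1 (R 4.3.3; lmFit and eBayes, trend and robust off, two-sided) with the kind of tumor as a block, which left 5 residual degrees of freedom. Changes within a kind of tumor, and their difference, came from a fit of the same 8 samples with 1 mean per group (4 degrees of freedom). Each of 5 comparisons had its p-values adjusted over 768 genes (Benjamini-Hochberg), with a threshold of 0.05. A gene at or below the limit in every sample of 1 arm has only a bound there, and gets no fold where both arms are below it or the bound is under 1. The fits were tested on simulated data. Replicates differed by more than counting error (chi-square per degree of freedom from 18.9 to 63.0), so none were copies. The number of samples and the limit set the precision, and counting error of dim genes was not modelled.

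Named genes were the 12 in each direction with the largest change past the threshold, filled up by smallest p, for DC1 against control over both tumors, and 6 for the other comparisons, all above the limit in at least 4 of 8 samples or in every sample of 1 group. The 2 to 4 members of smallest p in each of 31 lists with at least 4 measured genes (of 37 lists) and a fixed set of immune and metabolic genes were added, and repeated points were left out. Housekeeping genes were not named by size, and Cd86 was not analysed here. Some genes of the panel are not reported here. Members, lists and tests were chosen with earlier results of these data known. Scaling, filters, pseudocount, variance model, samples in the fit, blocks and left-out samples were varied. Promoter windows were read from RefSeq, and Ccl5 had no entry. Tables and figures were made with Python 3.11.15, pandas 2.3.3, numpy 2.4.6 and matplotlib 3.10.9.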

Additional observations from a re-analysis of the deposited data

How the results depend on the processing

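The number of calls depended on the settings. Each of the 10 genes kept its sign under every alternative run that tested it. Since they were picked for positive changes in these same samples, the kept sign is not independent support. Against the 10 genes that rose over both kinds of tumor, the count was 0 with samples centred on the panel median, 4 centred on 20 housekeeping genes, 44 with only the 588 genes above the limit in at least 2 samples, 19 with values raised to the limit, 47 with a pseudocount of 20, 13 with trend and robust on, 1 with all 18 samples in the fit, 20 with whole-number or scaled column as a further block, 0 with both tumors of the same arm and number averaged, and 25 without both shallow samples, an alternative chosen after seeing the data. With 1 sample left out it was 0 to 14. No gene fell under any of these. Of the 10 genes, 8 passed with the filter, 5 with raised values, 10 with the pseudocount and 8 with trend and robust on, and raised values lowered the change of Haao to 0.24 and of Slc2a6 to 0.22. Within whole-number and within scaled columns, also chosen after seeing the data and with no test, all 10 changes were positive, for Cd274 1.49 and 1.95 and for Slc16a3 2.44 and 1.91. The 10 genes were picked in these same samples, so these signs are a description only. In treated tumors 2 genes rose with values raised to the limit and 0 otherwise, and in untreated tumors and for the difference between kinds of tumor all counts were 0. Against the antibody, 66 genes rose, or 9 with median centring, 15 with all 18 samples, 0 averaged and 0 to 139 with 1 sample left out. There 3 fell, or 7 with median centring, 6 with housekeeping centring, 5 with the filter, 5 with the pseudocount of 20, 1 with all 18 samples, 0 averaged and 0 to 4 with 1 sample left out. The panel shift of 0.28 moved to -0.045 with median centring and 0.087 with housekeeping centring, and lay between 0.24 and 0.35 with 1 sample left out. Nothing in the labels says that a replicate number marks a shared mouse, and deviations of samples with the same number correlated between -0.52 and 0.52 across pairs of groups, the highest being treated with untreated DC1 tumors, so pairing was not settled. With the replicate block 5 genes rose, 4 of them among the 10. The cause of these changes was not tested. Hk3, Haao and Slc2a6 were at or below the limit in all control samples.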

Other observations

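In the lists of the following 2 paragraphs no gene passed over both kinds of tumor in limma, and counts are of genes with an unadjusted p under 0.05, where 24% of all panel genes were higher and 1.17% lower, so that a share near or below these is not a result about a list. Of 12 genes for T cell receptor signals and costimulation, 7 were higher, with a median of 0.60. Their summed level was 1041 to 1748 scaled counts in DC1 tumors and 746 to 1004 in control tumors. Much of that sum came from the pan-leukocyte gene Ptprc, which averaged 9.63 in DC1 tumors and 8.70 in control tumors and is not particular to T cells. The kinase gene Zap70, the adaptor gene Lat and the costimulatory receptor gene Cd28 were among the 7 and at or below the limit in all 8 samples. B cell and plasma cell markers (5 measured) gave 3 higher and a median of 0.81, but these 3, Blk and Tnfrsf17 among them, were at or below the limit in all 8 samples. The summed level of the list was 101 to 264 in DC1 tumors and 68.5 to 235 in control tumors. Stroma and vessel genes (7) gave 2 higher, Flt1, at or below the limit in all control samples, with a fitted change of 1.06 ± 0.26 and Col4a1, a basement membrane collagen, with 0.62 ± 0.22 (limma, adjusted p = 0.0830 and 0.146).

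Amino acid transporters (6) gave 2 higher and a median of 0.51, led by Slc7a5, the large neutral amino acid transporter LAT1, with a change of 0.59 ± 0.21 and groups that did not overlap (limma, adjusted p = 0.144). The other higher member was Slc7a11. Slc7a11, Slc1a5 and Slc7a9 were at or below the limit in all 8 samples. In 13 genes of growth factor receptors and MAP kinase signaling 4 were higher, with a median of 0.22 that turned to -0.10 after median centring, and Mapk8 and Nras had changes of 0.64 ± 0.17 and 0.48 ± 0.13 (adjusted p = 0.0857 for both). Lysosome and autophagy genes (16) gave 4 higher and a median of 0.22 that turned to -0.10 after median centring. Among 19 genes of the reactive oxygen response and glutathione 2 were higher, with a median of 0.17 that turned to -0.02 after housekeeping centring. Of the 2, Sod2, mitochondrial superoxide dismutase, had a change of 0.51 ± 0.13 (adjusted p = 0.0844), and Slc7a11 was at or below the limit in all 8 samples. DNA damage repair (13) gave 1 higher, Trp53 with 0.56 ± 0.15 (adjusted p = 0.0919), and a median of 0.10 that turned to -0.09 after housekeeping centring. MYC and its partners (8) gave 0 and a median of 0.11 that turned to -0.08 after housekeeping centring. The pentose phosphate pathway (7) gave 2 higher and a median of 0.36, and fatty acid and cholesterol synthesis (6) gave 1 higher, Acaca, and 1 lower, Srebf2. Synthesis of glutamine, serine and other amino acids (20) gave 2 higher, Gad1 and Ass1, and a median of 0.21 that turned to -0.11 after median centring. Lists with under 4 measured genes were not summarised beyond the dendritic and mammary epithelial markers given above.

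Inhibitory checkpoints (10) had 1 gene that rose (Cd274), 3 higher and none lower at an unadjusted p under 0.05, and a median of 0.38. Over the panel 24% of genes were higher at that threshold. Class II genes (5) had none that passed, 2 higher (H2-Ob, at or below the limit in all 8 samples, and H2-DMa) and a median of 0.69, or 0.37 after median centring.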
